A study of Mus musculus with 16 samples.

Results

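The genes described here are 10 genes of macrophages and of the complement protein C1q: the chain genes C1qa, C1qb and C1qc, the ficolin Fcna, the receptors Fcgr1, Cd14, Msr1 and Adgre1, the lysosomal protein Cd68 and the fusion protein Dcstamp. They were taken by symbol, and all 10 were found among the 30095 genes of the deposited table. Messenger RNA was sequenced from whole lungs of C57BL/6 mice that carried tumours of HKP1, a mouse lung adenocarcinoma line, so tumour, lung and immune cells were measured together. All animals bore tumours, and no group without a tumour was compared. The 6 groups combined a radiation dose of 0, 4 or 8 Gy with control IgG or with an antibody against PD-1, a receptor that restrains T cells. IgG was given with 0 Gy (3 libraries), 4 Gy (2) and 8 Gy (3), and anti-PD-1 with 0 Gy (2), 4 Gy (3) and 8 Gy (3). The irradiated lungs were collected 24 to 48 hours after the dose, and RNA from 3 to 4 mice was pooled in each of the 16 libraries, so p-values rest on the spread between pools. Age, sex and antibody schedule were not used here.

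C1q is the recognition molecule of the classical complement pathway. It is built from equal numbers of A, B and C chains, binds antibody complexes, dying cells and some microbes, and starts the cascade through the proteases C1r and C1s. Unlike most complement proteins, which come mainly from the liver, C1q is made largely by tissue macrophages and dendritic cells. Ficolin A, encoded by Fcna, recognises sugars and acetylated groups on microbes and starts the lectin pathway, and it too is made by macrophages. Fcgr1 encodes the high-affinity receptor for IgG (CD64), which signals through the shared chain encoded by Fcer1g. Cd14 hands bacterial lipopolysaccharide to the Toll-like receptor TLR4. Msr1 encodes scavenger receptor A, which takes up modified lipoproteins and debris. Adgre1 encodes F4/80, the classical surface marker of mouse macrophages, Cd68 is a glycoprotein of their endosomes and lysosomes, and Dcstamp is needed for macrophages and osteoclast precursors to fuse.

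On the mouse build mm10, annotated with GENCODE M21, the 3 C1q genes lie side by side on the minus strand within 18675 bases at chr4:136880129-136898803. In that span C1qb occupies chr4:136880129-136886187, C1qc chr4:136889804-136893065 and C1qa chr4:136895917-136898803. Fcgr1 lies at chr3:96282909-96293969, Fcna at chr2:25624666-25628030, Msr1 at chr8:39581685-39642673, Adgre1 at chr17:57358691-57483527, Cd68 at chr11:69664213-69666153 and Dcstamp at chr15:39745930-39760938. All are annotated as protein-coding, and the values are sums over each gene. The exons of Fcna overlap those of the antisense gene Fcnaos, and since the use of strand in counting is not given, reads of these genes cannot be told apart.

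Upstream sequence from RefSeq (GRCm38.p6, the same build) was matched for 5 of the 10 genes: C1qb, C1qc, Fcgr1, Fcna and Cd68. The others were C1qa, Msr1, Adgre1, Cd14 and Dcstamp. The runs of C1qb, C1qc and Fcgr1 are printed because these genes were higher at 8 Gy than at 0 Gy, and only bases outside the GENCODE gene are shown, 5′ to 3′ on the gene's own strand. Capitals mark GAGGAA (read as TTCCTC on the other strand), the core bound by the myeloid factor PU.1, searched on both strands. The sources are chr3:96293970-96294219 for Fcgr1, chr4:136886201-136886450 for C1qb and chr4:136893066-136893164 for C1qc, all read from the minus strand.
Fcgr1: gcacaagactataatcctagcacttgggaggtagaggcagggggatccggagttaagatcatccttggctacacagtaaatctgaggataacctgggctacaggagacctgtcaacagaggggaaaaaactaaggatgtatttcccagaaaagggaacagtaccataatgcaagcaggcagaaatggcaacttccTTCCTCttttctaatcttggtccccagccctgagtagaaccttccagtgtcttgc
C1qb: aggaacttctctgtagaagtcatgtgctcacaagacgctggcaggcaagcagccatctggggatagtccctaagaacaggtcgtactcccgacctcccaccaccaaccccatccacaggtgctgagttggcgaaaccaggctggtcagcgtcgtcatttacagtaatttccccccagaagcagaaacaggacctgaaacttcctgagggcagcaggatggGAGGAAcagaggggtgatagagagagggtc
C1qc: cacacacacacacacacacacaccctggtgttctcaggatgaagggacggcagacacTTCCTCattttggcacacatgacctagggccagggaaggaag

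The PU.1 core was found upstream of all 5 genes, against 23.3% of all 32851 RefSeq promoters, each searched over the 250 bases before its start. Counted in bases from the RefSeq start, it began at -30 for C1qb, -55 for Fcgr1, -193 for C1qc and -225 for Cd68, and it occurred 3 times upstream of Fcna, at -182, -169 and -163. The AP-1 site TGANTCA occurred at 2 places upstream of Cd68 and in none of the other 4, against 6.75% of all windows. The core of the interferon response element ISRE and the E-box CACGTG were found in none of the 5, against 2.98% and 6.02% of all windows. Such matches describe letters only.

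Levels are given as CPM, the reads of a gene scaled to the total reads of its library. One read was worth 0.0155 to 0.0418 CPM, and every member stood above the worth of 3 reads in every library. Replicates 2 and 3 of anti-PD-1 4 Gy stood apart, with 6134 and 5353 genes without a read against 2307 to 3891 in the other 14 libraries, and calls that rest on them are given with and without them. Without them that group holds 1 library, which the fit assumes to vary like the other groups. The genes called then number 87 in place of 3076 at 4 Gy against 0 Gy, and 2117 in place of 6011 at 8 Gy against 4 Gy. Leaving out 1 library of IgG 4 Gy or anti-PD-1 0 Gy likewise leaves 1. Mitochondrial genes took 0.899 to 3.23% of CPM at 0 Gy, 3.76 to 5.91% at 4 Gy and 1.53 to 7.53% at 8 Gy. Unirradiated libraries carry running numbers 13 to 17 in their names and irradiated ones 26 to 36, and if these mark preparation order, that order and irradiation cannot be told apart. The 4 Gy libraries carry 26 to 30 and the 8 Gy libraries 31 to 36, and within each dose IgG numbers come before anti-PD-1 numbers. Such an order could thus not be told apart from the step between 4 and 8 Gy or, within a dose, from the antibody. The macrophage receptor gene Csf1r was present in every library (155 to 441 CPM), as was the leukocyte gene Ptprc (125 to 361 CPM).

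Per kilobase of exon, C1qa and C1qb were the most abundant of the 10 genes, with means over the 16 libraries of 494 and 444 CPM per kilobase. Cd68 stood at 189 and C1qc at 188. Cd14 followed with 66.1, then Fcna with 29.2, Adgre1 with 21.9, Fcgr1 with 18.3 and Msr1 with 11.7 CPM per kilobase. Dcstamp was the lowest, with 0.73 CPM per kilobase.

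**Figure D1:**
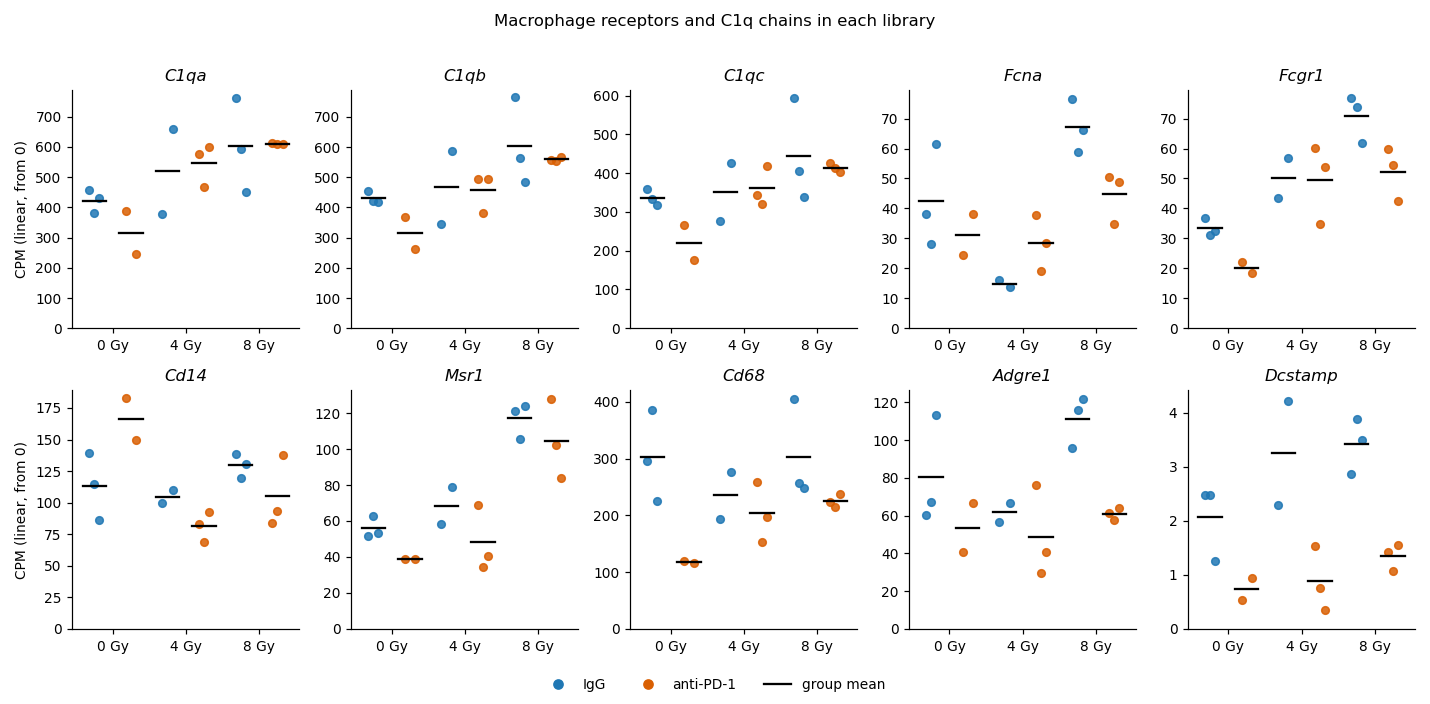
CPM of each gene (vertical axis, linear from 0) in each of the 16 libraries, by dose (horizontal axis) and antibody (blue IgG, orange anti-PD-1); black bars are group means. Every 8 Gy point of Msr1 lies above every 0 Gy and 4 Gy point, and every anti-PD-1 point of Dcstamp lies below the IgG points of its dose.

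Over both antibodies, Msr1, Fcgr1 and the 3 C1q chains were higher at 8 Gy than at 0 Gy, and no member was lower. These 5 of 10 members passed an adjusted p of 0.05 in limma, against 4.68% of the 17546 genes tested that were called higher and 16.1% called lower. These shares are 822 and 2818 genes. With equal library medians they became 1568 and 1915 genes, and 8 members were higher and 0 lower. The median log2 difference of the members was 0.64, and that of all genes was -0.09. All 6 libraries at 8 Gy lay above all 5 at 0 Gy for Msr1, Fcgr1 and C1qb, a separation seen in 1.54% of genes. At 4 Gy against 0 Gy, Fcgr1 was higher, as were 5.33% of genes, while Cd14 and Fcna were lower, as were 12.2% of genes. The members' median was 0.28 in that comparison, beside -0.14 for all genes. At 8 Gy against 4 Gy, Fcna, Msr1 and Adgre1 were higher, against a background of 17% of genes. These comparisons share libraries, so their lists are not independent of one another. In whole-lung RNA, a change in the number of macrophages and a change in the RNA of each cannot be told apart.

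**Figure D2:**
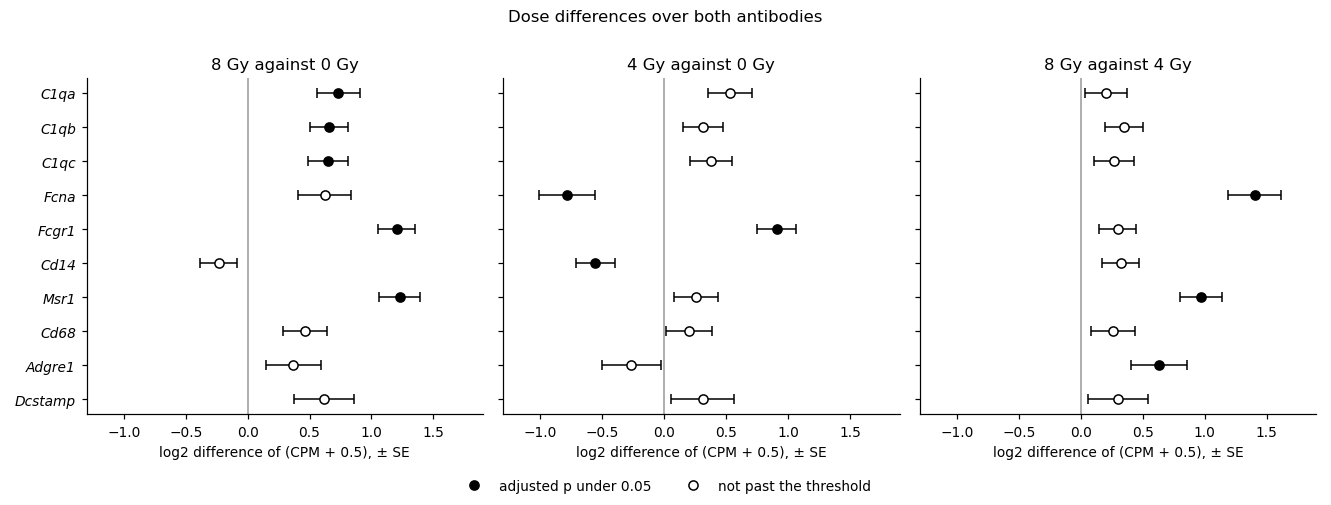
Log2 difference of CPM + 0.5 (horizontal axis, ± SE) for the 10 genes in the 3 dose comparisons over both antibodies; filled points passed an adjusted p of 0.05 in limma. Msr1 and Fcgr1 stand farthest to the right at 8 Gy against 0 Gy, and Fcna lies left of zero at 4 Gy and right of it at 8 Gy.

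The group means of all 3 C1q chains were lowest in the unirradiated anti-PD-1 group. In the IgG arm C1qa stood at 456, 380 and 430 CPM at 0 Gy, 379 and 659 at 4 Gy, and 764, 592 and 450 at 8 Gy. In the anti-PD-1 arm it stood at 388 and 245 CPM at 0 Gy, 576, 467 and 600 at 4 Gy, and 613, 609 and 611 at 8 Gy. The lowest 8 Gy library of C1qa lay just under the highest 0 Gy library, so the doses overlapped by 1 library on each side. Over both antibodies C1qa was 1.66-fold higher at 8 Gy than at 0 Gy (log2 difference 0.73 ± 0.17, SE; limma adjusted p = 0.00912).

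C1qb did not overlap between 0 and 8 Gy. Without irradiation it stood at 454, 420 and 420 CPM (IgG) and at 367 and 261 CPM (anti-PD-1). At 8 Gy it stood at 765, 564 and 485 CPM (IgG) and at 556, 555 and 569 CPM (anti-PD-1). The log2 difference was 0.66 ± 0.15 (limma adjusted p = 0.0094). The libraries at 4 Gy overlapped both doses, at 347 and 588 CPM (IgG) and 495, 383 and 495 CPM (anti-PD-1). Their difference of 0.31 ± 0.16 from 0 Gy was not past the threshold (limma adjusted p = 0.171).

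C1qc ran from 175 CPM in replicate 2 of anti-PD-1 0 Gy to 595 CPM in replicate 1 of IgG 8 Gy. Its medians by group were 335 CPM with IgG and 221 with anti-PD-1 at 0 Gy, 352 and 343 at 4 Gy, and 405 and 413 at 8 Gy. The difference between 8 and 0 Gy was 0.65 ± 0.16 (limma adjusted p = 0.0124). One library decided the calls of the 3 chains: without replicate 2 of anti-PD-1 0 Gy, the differences were 0.57, 0.53 and 0.50 for C1qa, C1qb and C1qc, with limma adjusted p of 0.0615, 0.0608 and 0.0805. Without replicate 1 of IgG 8 Gy, the highest library of all 3 chains, the 3 calls held, with adjusted p of 0.0208, 0.0206 and 0.0235.

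Neither antibody alone gave a C1q call between 8 and 0 Gy. With anti-PD-1 the log2 differences were 0.98 ± 0.25, 0.85 ± 0.23 and 0.93 ± 0.24 for C1qa, C1qb and C1qc (limma adjusted p = 0.0532, 0.061 and 0.0522). With IgG they were 0.48 ± 0.23, 0.46 ± 0.21 and 0.36 ± 0.21 (limma adjusted p = 0.19, 0.164 and 0.295). The differences between the arms were not past the threshold either (0.50 ± 0.34, 0.39 ± 0.31 and 0.57 ± 0.32; adjusted p = 0.997 for each).

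The 3 chains moved together from library to library. Pearson correlations of log2 values between chains were 0.949 to 0.968 over 16 libraries, and 0.942 to 0.975 once the group means were removed. All points come from the same libraries, and the values are given as a description. The ratio of C1qa to C1qb in CPM ran from 0.904 to 1.06 at 0 Gy, from 1.09 to 1.22 at 4 Gy and from 0.929 to 1.10 at 8 Gy, so the 5 libraries at 4 Gy lay above the 5 at 0 Gy. That ratio was chosen after its values were seen and was not tested. C1qc stood at 0.672 to 0.848 of C1qb over all libraries.

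**Figure D3:**
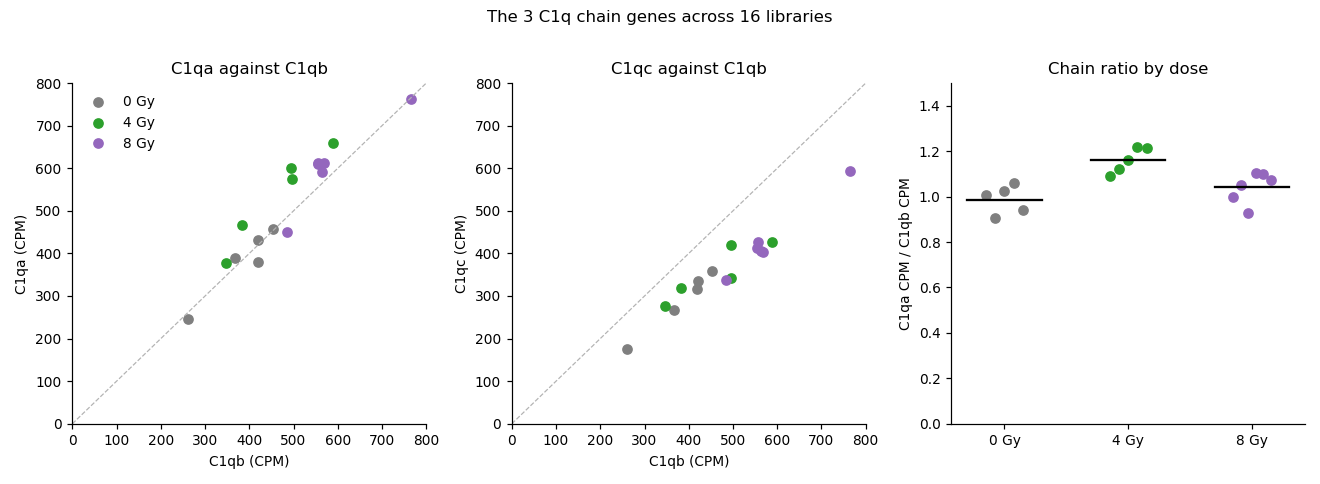
CPM of C1qa and C1qc against C1qb in the 16 libraries (both axes in CPM, the dashed line marks equality) and the ratio of C1qa to C1qb by dose (vertical axis from 0, black bars are means). The points of both chains lie close to a line through the origin, and the 5 ratios at 4 Gy (1.09 to 1.22) lie above the 5 at 0 Gy (0.904 to 1.06).

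Among the other components of the classical and shared pathway, 14 genes were tested. Of these, 0 were higher and 2 were lower at 8 Gy against 0 Gy in limma: C7 (-1.74 ± 0.43, adjusted p = 0.013) and Hc, which encodes C5 (-1.24 ± 0.32, adjusted p = 0.0149). This is about the share of all genes called lower in that comparison, 16.1%. Both encode proteins of the membrane attack complex. The median of the 14 was -0.22, beside -0.09 for all genes. Of 18 complement receptors and regulators, 4 were higher and 2 lower, with a median of 0.04. Itgam and Itgb2, the chains of complement receptor 3, rose by 1.05 ± 0.22 and 0.59 ± 0.12, and C3ar1, the receptor for the fragment C3a, rose by 1.03 ± 0.28. The regulator Cd46 was lower (-0.92 ± 0.28) and stayed so with equal library medians (-0.81, limma adjusted p = 0.0429). It was scarce, with a mean of 1.45 CPM and a lowest value of 0.237 CPM. Quantile normalization left 0 genes of this list called lower.

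Fcna was lowest in the IgG group at 4 Gy. Under IgG it stood at 38.2, 28.2 and 61.4 CPM at 0 Gy, 16.1 and 13.7 at 4 Gy, and 76.5, 58.8 and 66.3 at 8 Gy. With anti-PD-1 the levels were 24.5 and 38.0 CPM at 0 Gy, 37.8, 19.2 and 28.4 at 4 Gy, and 50.4, 34.9 and 49.0 at 8 Gy. With IgG the 4 Gy libraries lay below all others, while with anti-PD-1 the 0 and 4 Gy libraries were mixed. How many of all genes show the separation with IgG was not counted.

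Over both antibodies Fcna was 2.65-fold higher at 8 Gy than at 4 Gy (1.41 ± 0.21, limma adjusted p = 0.000673), and 1.18 without replicates 2 and 3 of anti-PD-1 4 Gy (adjusted p = 0.0127). It was lower at 4 Gy than at 0 Gy (-0.78 ± 0.23, adjusted p = 0.0331), a call that 11 of 26 alternatives ended. These included leaving out replicate 1 of IgG 0 Gy, replicate 1 or 2 of IgG 4 Gy, replicate 2 of anti-PD-1 0 Gy, or replicate 2 or 3 of anti-PD-1 4 Gy (-0.84 to -0.63, adjusted p = 0.0541 to 0.133), and without both of the last it was -0.56 (adjusted p = 0.25). Within IgG the difference between 8 and 4 Gy was 2.13 ± 0.32 (adjusted p = 0.00332) and was the 1 member call of that comparison, in which 1.64% of genes were called higher. Within anti-PD-1 it was 0.68 ± 0.29 (adjusted p = 0.0697), or 0.22 (adjusted p = 0.765) against the 1 library left without those replicates, and the difference between the arms was -1.46 ± 0.43 (adjusted p = 0.08). The 4 Gy against 0 Gy values were -1.42 ± 0.32 with IgG (adjusted p = 0.138) and -0.15 ± 0.32 with anti-PD-1 (adjusted p = 0.725). Relative to Csf1r, the 5 libraries at 4 Gy held 0.0466 to 0.0974 CPM of Fcna per CPM of Csf1r, under the 0.0991 to 0.245 of the 5 at 0 Gy. How many of all genes separate in this way relative to Csf1r was not counted.

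Of the other ficolins and collectins, 5 were tested, with a median of -0.67 at 8 Gy against 0 Gy. Of these, 2 were lower, Colec11 (-0.87 ± 0.23) and Mbl1 (-1.10 ± 0.33), and 0 were higher, beside 16.1% of all genes called lower. Both were scarce, with means of 1.02 and 0.95 CPM, and Mbl1 stood at 0 in 1 library. Quantile normalization ended the call of Colec11 (-0.61, limma adjusted p = 0.0763), and equal library medians kept it (-0.76, adjusted p = 0.0312). Sftpd, the collectin of alveolar epithelium, rose by 1.53 ± 0.30 at 4 Gy against 0 Gy (limma adjusted p = 0.012), a call that ended without replicates 2 and 3 of anti-PD-1 4 Gy (1.35, adjusted p = 0.11).

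Fcgr1 rose at both doses. It stood at 36.9, 31.2 and 32.3 CPM with IgG at 0 Gy, 43.5 and 56.8 at 4 Gy and 76.7, 73.8 and 61.8 at 8 Gy. With anti-PD-1 it stood at 21.9 and 18.4 CPM at 0 Gy, 60.3, 34.8 and 53.7 at 4 Gy, and 59.7, 54.4 and 42.4 at 8 Gy. Its 5 unirradiated libraries held the 4 lowest values of all, and the fifth, at 36.9 CPM, was exceeded by every irradiated library except replicate 2 of anti-PD-1 4 Gy.

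Over both antibodies Fcgr1 was 2.30-fold higher at 8 Gy than at 0 Gy (1.20 ± 0.15, limma adjusted p = 0.000316). At 4 Gy it was 1.88-fold higher than at 0 Gy (0.91 ± 0.16, adjusted p = 0.00745), and this call ended without replicate 2 of IgG 4 Gy (0.81, adjusted p = 0.061). The value was 1.07 without replicates 2 and 3 of anti-PD-1 4 Gy (adjusted p = 0.0113). The difference between 8 and 4 Gy was 0.30 ± 0.15 and not past the threshold (adjusted p = 0.129). In each antibody arm Fcgr1 and Msr1 were the 2 members called higher at 8 Gy against 0 Gy, beside 1.44% of genes with IgG and 0.957% with anti-PD-1. For Fcgr1 the values were 1.07 ± 0.20 with IgG (adjusted p = 0.00683) and 1.34 ± 0.22 with anti-PD-1 (adjusted p = 0.00845). Without replicate 2 of anti-PD-1 0 Gy the second call ended (1.22, adjusted p = 0.158).

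Among 10 other Fc receptor and signalling genes tested, 5 were higher and 1 lower at 8 Gy against 0 Gy, with a median of 0.47. The lower one, the neonatal Fc receptor gene Fcgrt (-0.33, limma adjusted p = 0.0482), was not called with equal library medians (-0.23, adjusted p = 0.185) or quantile normalization (-0.27, adjusted p = 0.118). Those higher included the activating receptor Fcgr4 (1.03 ± 0.12), the signalling chain Fcer1g (0.64 ± 0.13) and the low-affinity receptor Fcgr3 (0.61 ± 0.13). At 4 Gy against 0 Gy, 3 of the 10 were higher, among them Fcer1g (0.50 ± 0.13) and Fcgr4 (0.41 ± 0.12). With replicates 2 and 3 of anti-PD-1 4 Gy left out, 0 of the 10 were called in limma and 3 had an unadjusted p under 0.05. Fcer1g and Fcgr4 then gave 0.54 and 0.35 (limma adjusted p = 0.106 and 0.193).

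Cd14 was the 1 member with a negative difference between 8 and 0 Gy over both antibodies (-0.23 ± 0.15, limma adjusted p = 0.285). With anti-PD-1 it stood at 183 and 150 CPM at 0 Gy, the 2 highest values of all 16 libraries, then at 83.1, 69.1 and 92.7 at 4 Gy and 84.2, 93.8 and 138 at 8 Gy. With IgG it stood at 140, 115 and 86.0 CPM at 0 Gy, 99.5 and 110 at 4 Gy, and 138, 120 and 131 at 8 Gy. The IgG libraries at 0 Gy spanned those of both other doses, and with anti-PD-1 every irradiated library lay below both unirradiated ones. How many of all genes show the latter separation was not counted.

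At 4 Gy with anti-PD-1 Cd14 was lower than at 0 Gy (-1.03 ± 0.22, limma adjusted p = 0.00568). In that comparison 4 members were higher, Fcgr1 (1.25 ± 0.22), C1qa (0.82 ± 0.25), C1qc (0.73 ± 0.24) and Cd68 (0.75 ± 0.26), beside 13.4% of genes called higher and 25.9% called lower. Without replicates 2 and 3 of anti-PD-1 4 Gy, 1 library stands against 2 and the spread comes from the other groups. In that fit Fcgr1 gave 1.56 (adjusted p = 0.0281), Cd14 -0.99 (0.157), C1qa 0.90 (0.214), C1qc 0.66 (0.286) and Cd68 1.13 (0.147). The calls of C1qa and C1qc also ended without replicate 2 of anti-PD-1 0 Gy (0.49 and 0.42, adjusted p = 0.249 and 0.288) or replicate 3 of anti-PD-1 4 Gy (0.75 and 0.61, adjusted p = 0.0749 and 0.102). That of Cd68 ended without either anti-PD-1 0 Gy library or replicate 1 or 3 of anti-PD-1 4 Gy (0.56 to 0.78, adjusted p = 0.085 to 0.149). With IgG the same dose gave Cd14 a value of -0.09 ± 0.22, and the difference between the arms was -0.94 ± 0.31 (adjusted p = 0.0654). Over both antibodies the fall at 4 Gy was -0.56 ± 0.16 (adjusted p = 0.0316), and 13 of 26 alternatives ended it. Among them were leaving out replicate 1 or 2 of IgG 0 Gy, either library of IgG 4 Gy or anti-PD-1 0 Gy, or replicate 2 or 3 of anti-PD-1 4 Gy (-0.63 to -0.48, adjusted p = 0.0502 to 0.104), and without both of the last it was -0.54 (adjusted p = 0.169). At 8 Gy Cd14 gave 0.22 ± 0.20 with IgG and -0.69 ± 0.22 with anti-PD-1 (adjusted p = 0.524 and 0.113), and the difference between the arms was -0.90 ± 0.30 (adjusted p = 0.997).

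Of 18 other lipopolysaccharide and Toll-like receptor genes tested, 5 were higher and 1 lower at 8 Gy against 0 Gy, with a median of 0.35. Ticam2, an adaptor of TLR4, rose by 1.03 ± 0.13, and Cd180 and Ly86, which form a TLR4-like receptor complex, rose by 1.20 ± 0.23 and 0.85 ± 0.12. Lbp, the plasma protein that delivers lipopolysaccharide to Cd14, was lower (-0.73 ± 0.22, limma adjusted p = 0.0285). Equal library medians ended this call and left 0 of the 18 lower, while quantile normalization kept it (-0.69, limma adjusted p = 0.042).

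Msr1 separated 8 Gy from both other doses. It stood at 51.8, 62.6 and 53.6 CPM with IgG at 0 Gy, 58.1 and 78.9 at 4 Gy, and 121, 105 and 124 at 8 Gy. With anti-PD-1 it stood at 38.7 and 39.0 CPM at 0 Gy, 69.2, 34.2 and 40.7 at 4 Gy, and 128, 102 and 84.0 at 8 Gy. The lowest library at 8 Gy exceeded the highest of the 10 others, a separation from 4 Gy that 6.06% of genes showed.

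Msr1 was 2.34-fold higher at 8 Gy than at 0 Gy (1.23 ± 0.17, limma adjusted p = 5e-04) and 1.96-fold higher than at 4 Gy (0.97 ± 0.17, adjusted p = 0.00127), or 0.68 without replicates 2 and 3 of anti-PD-1 4 Gy (adjusted p = 0.0166). At 4 Gy against 0 Gy the difference was 0.26 ± 0.18 and not past the threshold (adjusted p = 0.29). The arms gave 1.06 ± 0.22 with IgG and 1.40 ± 0.25 with anti-PD-1 between 8 and 0 Gy (adjusted p = 0.0119 and 0.0109). Their difference was 0.34 ± 0.33. Both calls within arms ended without single libraries: replicate 1 of IgG 0 Gy (adjusted p = 0.063) or replicate 3 of IgG 8 Gy (0.055), and either anti-PD-1 0 Gy library (0.063 and 0.158) or replicate 1 of anti-PD-1 8 Gy (0.059). Between 8 and 4 Gy with anti-PD-1, Msr1 was the 1 member called higher (1.16 ± 0.22, adjusted p = 0.00346), beside 24.4% of genes. Replicate 1 of anti-PD-1 4 Gy stood higher than replicates 2 and 3 (69.2 against 34.2 and 40.7 CPM). Against that library alone, with the spread taken from the other groups, the difference was 0.57 (adjusted p = 0.22).

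Of 13 other scavenger receptors tested, 0 were called between 8 and 0 Gy in limma, 5 had an unadjusted p under 0.05, 3 had a positive difference, and the median was -0.16. The 2 with the lowest p were the endothelial and macrophage receptors Stab2 (-0.56 ± 0.20, adjusted p = 0.0635) and Stab1 (-0.43 ± 0.16, adjusted p = 0.0649).

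Adgre1 was highest with IgG at 8 Gy, at 95.7, 116 and 122 CPM. Its other IgG levels were 60.5, 67.0 and 113 CPM at 0 Gy and 56.8 and 66.8 at 4 Gy. With anti-PD-1 it stood at 41.0 and 66.5 CPM at 0 Gy, 76.2, 29.7 and 40.8 at 4 Gy, and 61.2, 57.8 and 64.1 at 8 Gy. At 8 Gy every anti-PD-1 library lay below every IgG library, as was also so for Fcgr1, Fcna, Cd68 and Dcstamp. The share of all genes with this separation was not counted. The difference between 8 and 4 Gy was 0.63 ± 0.22 (limma adjusted p = 0.0425), and 14 of 26 alternatives ended the call. These included leaving out any library of IgG 4 Gy or anti-PD-1 8 Gy, replicate 2 or 3 of IgG 8 Gy, or replicate 2 or 3 of anti-PD-1 4 Gy (0.48 to 0.69, adjusted p = 0.0602 to 0.134). Without replicates 2 and 3 of anti-PD-1 4 Gy it was 0.26 (adjusted p = 0.432). Against 0 Gy, 8 Gy gave 0.37 ± 0.22 (adjusted p = 0.263).

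Cd68 was lowest with anti-PD-1 at 0 Gy, at 120 and 116 CPM. The IgG libraries held 297, 386 and 225 CPM at 0 Gy, 194 and 277 at 4 Gy, and 406, 257 and 248 at 8 Gy. The irradiated anti-PD-1 libraries held 259, 153 and 198 CPM at 4 Gy and 223, 215 and 237 at 8 Gy. Both anti-PD-1 libraries at 0 Gy lay below all other 14 libraries, as they also did for Fcgr1. This was not particular to the members. Csf1r stood at 177 and 155 CPM in these libraries, against 256 CPM or more in the other 14. The sum of 6 general leukocyte genes was 1248 to 1325 CPM there, against 1712 CPM or more in the others. Ptprc, 1 of these 6 genes, overlapped the other libraries, at 131 and 180 CPM. The share of all genes lowest in these libraries was not counted. Between 8 and 0 Gy Cd68 gave 0.00 ± 0.24 with IgG and 0.93 ± 0.26 with anti-PD-1 (limma adjusted p = 0.996 and 0.0771), and the difference between the arms was 0.93 ± 0.36 (adjusted p = 0.997). For 4 Gy against 0 Gy, that difference was 1.10 ± 0.37 (adjusted p = 0.068).

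Of 14 other phagolysosome genes, 0 were called in either direction between 8 and 0 Gy in limma and 1 had an unadjusted p under 0.05. Of the 14, 11 had a positive difference, with a median of 0.13. Between the antibodies over all doses 0 were called and 6 had an unadjusted p under 0.05, all 14 were negative, and the median was -0.33. At 8 Gy against 0 Gy the protease gene Ctss gave 0.43 ± 0.17 (adjusted p = 0.0867) and Psap, the precursor of the saposins, 0.29 ± 0.14 (adjusted p = 0.151).

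Dcstamp was the 1 member that differed between antibodies over all doses. With IgG it stood at 2.48, 2.47 and 1.26 CPM at 0 Gy, 2.29 and 4.22 at 4 Gy, and 2.87, 3.89 and 3.49 at 8 Gy. With anti-PD-1 it stood at 0.534 and 0.935 CPM at 0 Gy, 1.53, 0.752 and 0.351 at 4 Gy, and 1.41, 1.07 and 1.55 at 8 Gy. At each dose all anti-PD-1 libraries lay below all IgG libraries, which 0.142% of genes showed, and no other member did.

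Over all doses Dcstamp was lower with anti-PD-1 (-1.20 ± 0.20, limma adjusted p = 0.0374), the 1 member called beside 0.0684% of genes called lower. The values within doses were -1.03 ± 0.36 at 0 Gy (adjusted p = 0.303), -1.49 ± 0.36 at 4 Gy (adjusted p = 0.0319, beside 8.57% of genes called lower) and -1.09 ± 0.32 at 8 Gy (adjusted p = 0.234). Of 25 alternatives, 15 ended the call over all doses, among them the fit without replicates 2 and 3 of anti-PD-1 4 Gy (-0.99, adjusted p = 0.237), and in each of the 25 the difference was negative. Leaving out any single library ended it except replicates 2 and 3 of IgG 0 Gy, replicate 1 of anti-PD-1 4 Gy and replicate 1 of anti-PD-1 8 Gy, with adjusted p of 0.0582 to 0.217. The call at 4 Gy ended without either IgG library or replicate 2 or 3 of anti-PD-1 there (adjusted p = 0.111 to 0.156), and without both of the last, with 1 library left, it was -0.84 (adjusted p = 0.655). On the log2(CPM + 0.5) scale the change of so low a gene is understated.

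Of 13 other genes of cell fusion and osteoclasts, 4 were higher and 1 lower at 8 Gy against 0 Gy, with a median of 0.15. Between the antibodies 0 of the 13 were called in limma and 7 had an unadjusted p under 0.05, 1 was positive, and the median was -0.39. Ocstamp, which acts beside Dcstamp in fusion, gave 0.69 ± 0.19 at 8 Gy against 0 Gy (adjusted p = 0.0193) and -0.43 ± 0.15 with anti-PD-1 against IgG (adjusted p = 0.158). Tyrobp, the adaptor of the receptor Trem2, gave 0.50 ± 0.11 (adjusted p = 0.00812) and -0.39 ± 0.10 (adjusted p = 0.0699). Ctsk, the collagen-degrading protease of osteoclasts, fell by 0.87 on the log2 scale at 8 Gy against 0 Gy.

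All 10 members had a negative difference for anti-PD-1 against IgG over all doses, with a median of -0.31 beside 0.01 for all genes. Fcna was positive (0.11) without replicates 2 and 3 of anti-PD-1 4 Gy. All 6 general leukocyte genes tested (Ptprc, Cd53, Laptm5, Coro1a, Cd48 and Itgb2) were negative too, with a median of -0.40, of which 0 were called in limma and 4 had an unadjusted p under 0.05. Of 9 epithelial markers 8 were positive, with a median of 0.45, of which 0 were called and 4 had an unadjusted p under 0.05. The part of either list in the members' values was not tested. Cd68 gave -0.65 ± 0.15 (limma adjusted p = 0.064), Adgre1 -0.62 ± 0.19 (0.105), Msr1 -0.42 ± 0.14 (0.132) and Fcgr1 -0.40 ± 0.12 (0.108). The C1q chains gave -0.09 to -0.21, and Cd14 and Fcna -0.04 each. At 0 Gy 0 members were called in limma, beside 0.274% of genes called in either direction, while 5 had an unadjusted p under 0.05, and Cd68 came nearest (-1.32 ± 0.26, adjusted p = 0.0576). At 8 Gy 0 were called, beside 0.00570% of genes, and 3 had an unadjusted p under 0.05. At 4 Gy against 0 Gy with IgG 0 were called and 2 had an unadjusted p under 0.05, in a comparison that called 1 gene of the whole table (0.00570%). In limma 0 members passed the threshold for a difference between the arms in the effect of 8 against 0, 4 against 0 or 8 against 4 Gy, with 2, 4 and 1 members at an unadjusted p under 0.05. These 3 tests called 0%, 9.08% and 0% of genes.

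**Figure D4:**
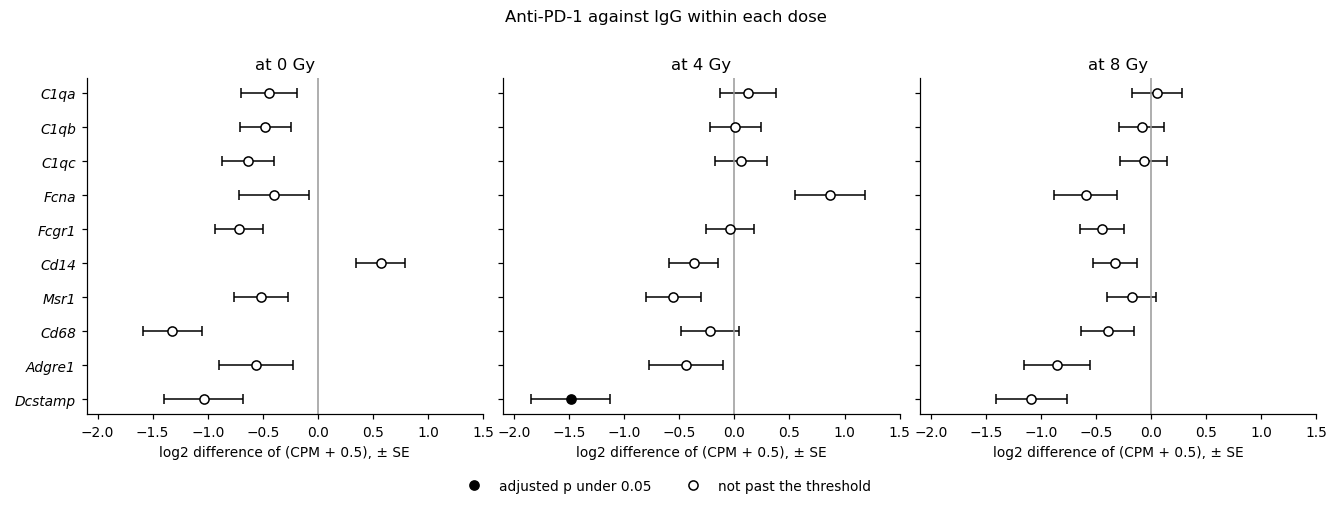
Log2 difference of CPM + 0.5 between anti-PD-1 and IgG (horizontal axis, ± SE) at 0, 4 and 8 Gy for the 10 genes; the filled point passed an adjusted p of 0.05 in limma. Dcstamp lies left of zero at all 3 doses (-1.03, -1.49 and -1.09), and Cd14 lies right of zero at 0 Gy only.

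Of 18 genes of macrophage growth and identity, 7 were higher and 1 lower between 8 and 0 Gy, with a median of 0.27. The lower one, Il34, which encodes a ligand of the Csf1r receptor (-0.36, limma adjusted p = 0.0466), was not called with equal library medians or quantile normalization (-0.25 each, adjusted p = 0.141 and 0.148). Aif1, which encodes IBA1, rose by 1.19 ± 0.23, Spi1, which encodes PU.1, by 0.73 ± 0.14 and Csf1r by 0.58 ± 0.12. Set against Csf1r in the same library, Msr1 (0.65 ± 0.16, limma adjusted p = 0.00214) and Fcgr1 (0.63 ± 0.14, adjusted p = 0.00103) were higher at 8 Gy, beside 0.787% of genes. The C1q chains gave 0.16 ± 0.16, 0.08 ± 0.16 and 0.07 ± 0.17 for C1qa, C1qb and C1qc, none past the threshold.

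In ratios of CPM, Fcgr1 stood at 0.0857 to 0.124 of Csf1r in the 5 libraries at 0 Gy, 0.129 to 0.193 at 4 Gy and 0.159 to 0.188 at 8 Gy, so both irradiated doses lay above the unirradiated one. Msr1 stood at 0.142 to 0.252, 0.127 to 0.269 and 0.243 to 0.404, with overlap between 0 and 8 Gy. The summed C1q chains stood at 3.10 to 5.79, 3.65 to 5.70 and 3.59 to 5.94, which overlapped at all doses.

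Cd14 relative to Csf1r was lower at 8 Gy than at 0 Gy (-0.81 ± 0.20, adjusted p = 0.00187), in a comparison where 75.1% of genes were called lower. The anti-PD-1 libraries at 0 Gy carried ratios of up to 1.04, while all others lay between 0.214 and 0.517, and an additive model of dose and antibody ended the call (-0.69, adjusted p = 0.074). Set against Ptprc, 0 members were called in limma, beside 26.5% of genes in either direction, and 3 had an unadjusted p under 0.05: Msr1 (0.76 ± 0.31, adjusted p = 0.0555), Fcgr1 (0.73 ± 0.31, adjusted p = 0.0619) and Cd14 (-0.71 ± 0.33, adjusted p = 0.0911).

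**Figure D5:**
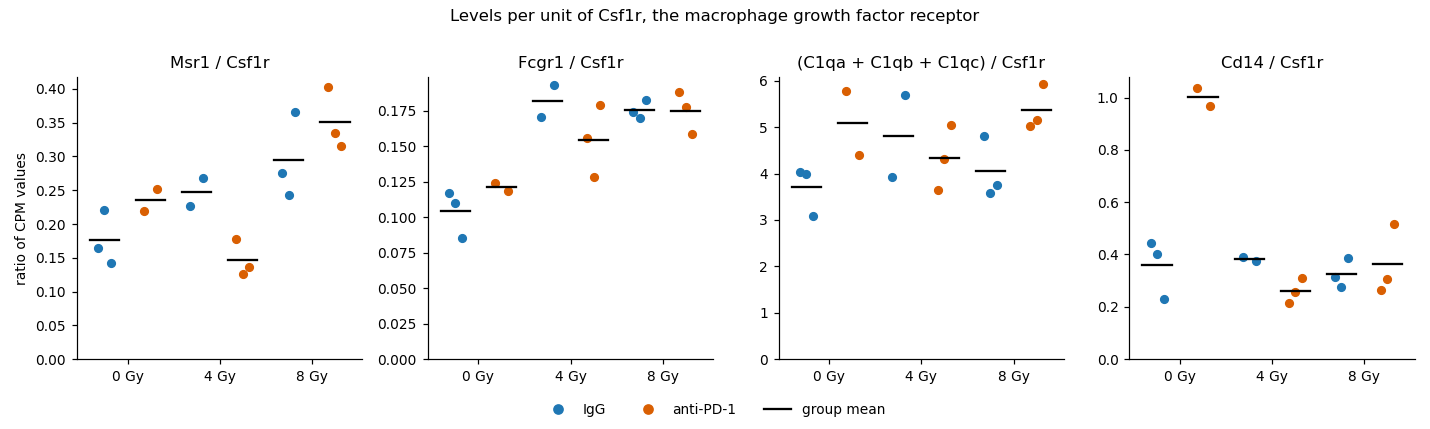
CPM of Msr1, Fcgr1, the 3 summed C1q chains and Cd14 divided by the CPM of Csf1r in the same library (vertical axes, linear from 0), by dose and antibody; black bars are group means. For Fcgr1 the 11 irradiated libraries (0.129 to 0.193) lie above the 5 at 0 Gy (0.0857 to 0.124), while the C1q ratio overlaps between doses.

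Markers of some other cells also differed between doses, and their part in the members' values was not tested. At 8 Gy against 0 Gy, 5 of 12 monocyte markers were higher, among them Ly6c2 (1.33 ± 0.22) and Ccr2 (1.23 ± 0.36). The 12 monocyte markers summed to 4133 to 5341 CPM at 0 Gy and 3696 to 5056 at 8 Gy. Fn1 and Chil3, neither of which was called, made up 81.2 to 90.6% of these sums. The other 10 summed to 472 to 768 CPM at 0 Gy and 551 to 845 at 8 Gy. All 6 general leukocyte genes had a positive difference, with a median of 0.54, and 2 were called higher (5 with equal library medians). Of 12 interstitial macrophage markers, 3 were higher and 1 lower (428 to 601 and 414 to 547 CPM in sum). Of 14 alveolar macrophage markers, 0 were higher and 4 lower (2 and 3 with library medians set equal), including Fabp4 (-1.15 ± 0.25), with sums of 1095 to 2148 CPM at 0 Gy and 1078 to 1723 at 8 Gy. All 7 red blood cell genes were higher (6 with quantile normalization), and haemoglobin genes took 0.193 to 2.16% of CPM at 0 Gy and 0.639 to 2.20% at 8 Gy. Of 11 neutrophil markers, 2 were higher and 1 lower (213 to 683 CPM in sum at 0 Gy, 245 to 509 at 8 Gy). Of 10 T cell, 8 B cell and 12 dendritic cell markers, 0 were called higher (1 dendritic cell marker with either other scaling), and 1 dendritic cell marker was lower. All 10 T cell and all 8 B cell markers had a positive difference, with medians of 0.27 and 0.32. In limma 0 of either list had an unadjusted p under 0.05. Of the dendritic cell markers 4 were positive, with a median of -0.06. Of 9 epithelial and 8 endothelial markers, 0 were higher and 2 and 1 lower, with medians of -0.66 and -0.67.

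Marker lists also differed in the comparisons that use 4 Gy. At 4 Gy against 0 Gy, 6 of 9 epithelial and 7 of 8 endothelial markers were higher, with medians of 1.38 and 1.32. With replicates 2 and 3 of anti-PD-1 4 Gy left out, 0 of either list were called in limma, while 6 and 8 had an unadjusted p under 0.05, and the medians were 1.21 and 1.30. At 8 Gy against 4 Gy, where Fcna, Msr1 and Adgre1 were called higher, 6 epithelial and all 8 endothelial markers were lower (6 and 7 without those replicates). In that comparison 5 of 10 T cell markers, 3 of 6 leukocyte genes and 3 of 12 interstitial macrophage markers were higher (0, 0 and 1 in limma without those replicates, where 6 T cell markers and 0 leukocyte genes had an unadjusted p under 0.05). The epithelial sum was 11656 to 24408 CPM at 4 Gy against 3398 to 9607 at 0 Gy and 3232 to 8274 at 8 Gy. Every marker in these lists was above 0 in every library.

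The genes closest to each member across the 16 libraries differed between members. By Pearson correlation of log2 values, the mean of the C1q chains was nearest to Ifi30 (0.880), Lgals3 (0.871) and Gm2a (0.869). Fcgr1 was nearest to Ly86 (0.931), Rtp4 (0.920) and Gad1-ps (0.920), and the genes nearest to Msr1 included Ctsc (0.941) and Bcl2a1b (0.938). For Fcna these were Tec (0.946), Padi4 (0.916) and Emilin2 (0.914), for Cd68 Slc37a2 (0.927), Cd300a (0.925) and Psap (0.913), and for Dcstamp Clec4n (0.900), Mmp12 (0.889) and Cd300lb (0.876). Adgre1 was nearest to Kcnk6 (0.919), Pip4k2a (0.911) and Baz1a (0.907). Cd14 had the weakest such neighbours, Sgtb (0.826), Gm49510 (0.815) and Phf13 (0.801). With group means removed, these 3 values were 0.516, 0.713 and 0.801. Sgtb and Gm49510 were scarce, with means of 3.21 and 0.548 CPM, as was Gad1-ps, with 2.32 CPM. Between members, Fcgr1 correlated with the C1q chains at 0.826 to 0.849, while Cd14 correlated with them at -0.267 to -0.085. Once the group means were removed, the values were 0.593 to 0.689 for Fcgr1 and 0.352 to 0.423 for Cd14, whose sign thus changed. The points share the dose groups and the libraries, so these values describe the table only.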

How the data were processed

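RNA sequencing of 16 libraries of HKP1-bearing lungs was used. Reads were processed with STAR and Partek on mm10, per the submitters' processing notes, and versions, annotation, counting and strand settings were not given in the sources used. The authors deposited CPM per gene with 1e-04 added. CPM of the listed genes summed to 866770 to 915006 per library. Only 60.6 to 63.7% of values below 100 reads came out whole (tolerance 0.02), and no count model could be applied. Groups and replicate numbers came from the titles.

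The test was limma 3.58.1 (trend and robust options; R 4.3.3, data.table, version 1.17.8) on log2(CPM + 0.5). It covered the 17546 genes that reached 1 CPM in 2 or more libraries, fitted 6 group means to all 16 libraries and used no replicate block. P-values were Benjamini-Hochberg adjusted over all genes, with a threshold of 0.05. A comparison over both antibodies is the mean of the IgG and the anti-PD-1 difference. A member relative to Csf1r or Ptprc was tested on the difference of log2 values. All 10 members are named. Each list contributes up to 4 genes of lowest p at 8 against 0 Gy, of which the text gives some, and each member its 3 most correlated genes. Fcgrt, Il34, Fn1 and Chil3 are named after their values were seen. A few genes that these rules name are not reported here. The members and the lists were chosen with earlier results of these data known. The closest libraries differed by a median of 0.12 on the log2 scale, so none was counted as a duplicate.

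Promoters came from the RefSeq table, lengths and positions from GENCODE M21. The fit was tested on simulated data. Tables and figures were made with Python 3.11.15, numpy 2.4.6, pandas 2.3.3 and matplotlib 3.10.9. Alternatives were quantile normalization, equal library medians, no filter, pseudocounts of 0.1 and 1, a replicate block, the compared groups only, an additive model, no trend or robustness, leaving out each library, and leaving out replicates 2 and 3 of anti-PD-1 4 Gy.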

Additional observations from a re-analysis of the deposited data

Results flagged for a closer look

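Of 50 groups of libraries examined over the 10 members (each dose over both antibodies, and each antibody over all doses), 4 held a library far from the others, and chance alone gives about 1 in 20. All 4 were replicate 1 of IgG 8 Gy. C1qb stood at 764.7 CPM there, and the next library at 8 Gy stood at 569 CPM. C1qc stood at 594.6 CPM, with 426 CPM in the next library both at 8 Gy and among the IgG libraries of all doses. Cd68 stood at 405.5 CPM, with 257 CPM next at 8 Gy. That library showed no such distance for C1qa, Msr1, Fcgr1, Adgre1, Cd14, Fcna or Dcstamp.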

How the results depend on the processing

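The calls of Msr1 and Fcgr1 at 8 Gy against 0 Gy over both antibodies held under all 26 alternatives, and those of C1qa, C1qb and C1qc under 25 of 26. The number of members called changed as follows, and the number of all genes called changed too. At 8 against 0 Gy, 822 genes were called higher in the main analysis, 1568 with equal library medians and 1421 with quantile normalization. For most settings the share of all genes is not given, so these counts do not set the members apart from the whole table. Setting library medians equal gave 8 (5 in the main analysis) at 8 against 0 Gy, 2 (1) at 8 against 4 Gy with IgG, and for the antibody 1 (0) at 0 Gy and 2 (1) at 4 Gy. Quantile normalization gave 5 (2) at 8 against 0 Gy with anti-PD-1, 1 (0) and 2 (1) for the antibody at 0 and 4 Gy, and 1 (0) for the antibody difference in the 4 against 0 Gy effect. Without a filter, 1 (0) was called for the antibody at 0 Gy. The additive model gave 1 (3) at 4 against 0 Gy, 1 (0) at 8 against 0 Gy relative to Ptprc and 0 (1) for the antibody over all doses. Fitting only the compared groups gave 1 (3) at 4 against 0 Gy, 3 (1) at 8 against 4 Gy with IgG, 0 (1) and 1 (0) for the antibody at 4 and 8 Gy, and 1 (0) for the antibody difference in the 8 against 4 Gy effect. Without replicates 2 and 3 of anti-PD-1 4 Gy, 1 (3) was called at 4 against 0 Gy, 1 (5) in its anti-PD-1 arm, 0 (1) at 8 against 4 Gy with anti-PD-1, 2 (1) with IgG, 1 (0) relative to Ptprc, and 0 (1) for the antibody over all doses and at 4 Gy. The cause of these changes was not tested. Leaving out 1 library at a time gave 2 to 7 members at 8 against 0 Gy, 0 to 4 at 4 against 0 Gy, 2 to 4 at 8 against 4 Gy and 0 to 5 for the antibody over all doses. With IgG it gave 1 to 3, 0 to 0 and 1 to 2 for the same dose comparisons, and with anti-PD-1 0 to 5, 2 to 6 and 1 to 4. It gave 0 to 1, 0 to 3 and 0 to 0 for the antibody at 0, 4 and 8 Gy, 3 to 3 relative to Csf1r and 0 to 2 relative to Ptprc, and 0 to 0, 0 to 2 and 0 to 1 for the antibody difference in the 8 against 0, 4 against 0 and 8 against 4 Gy effects.

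Some differences turned sign. Without replicates 2 and 3 of anti-PD-1 4 Gy, Adgre1 at 4 against 0 Gy gave 0.11, Dcstamp at 8 against 4 Gy -0.023, Fcna for the antibody over all doses 0.11, and Fcna at 4 against 0 Gy with anti-PD-1 0.30. The last gave 0.0091 with medians equal and 0.010 with quantile normalization, which also gave 0.049 for Cd14 at 4 against 0 Gy with IgG. Leaving out 1 library, the ranges that crossed zero were -0.019 to 0.54, -0.052 to 0.42 and -0.088 to 0.44 for C1qa, C1qb and C1qc relative to Ptprc and -0.029 to 0.18 for C1qc relative to Csf1r. For the antibody over all doses they were -0.22 to 0.044 for C1qa, -0.11 to 0.013 for Cd14 and -0.15 to 0.061 for Fcna. They were -0.27 to 0.077 for Cd14 at 4 against 0 Gy with IgG, -0.22 to 0.20 for Cd68 at 8 against 0 Gy with IgG and -0.46 to 0.16 for Fcna at 4 against 0 Gy with anti-PD-1.

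Setting library medians equal moved the median of all genes at 8 against 0 Gy from -0.09 to 0.02, and the share of calls that were higher from 22.6 to 45.0%, with 1568 genes higher and 1915 lower in place of 822 and 2818. Quantile normalization gave 1421 higher and 1764 lower. The medians at 8 against 0 Gy of the 9 pathway lists kept their sign under both scalings. At 4 against 0 Gy, 935 higher and 2141 lower became 1275 and 798, or 1343 and 1061 with quantile normalization. Replicate numbers did not pair the libraries: same-numbered libraries of different groups correlated at -0.546 to 0.442 (36 pairs), and 3 of 16 libraries correlated best with their own number. With a replicate block, 0 members (1) were called for the antibody over all doses and at 4 Gy, Adgre1 lost its call at 8 against 4 Gy (0.59, limma adjusted p = 0.072), and no other member's call over both antibodies changed. Depth limits Dcstamp most: its lowest value, 0.351 CPM, stands beside 0.0958 CPM for 3 reads in that library.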
